A study of Mus musculus with 8 samples.

Results

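The genes described here encode calcineurin, the NFAT transcription factors and the regulators of calcineurin, 9 genes in all: Ppp3ca, Ppp3cb, Ppp3r1, Nfatc1, Nfatc2, Nfatc3, Nfatc4, Rcan1 and Rcan2. Their accessible regions were taken by gene name from the deposited ATAC-seq table, which gave 617 regions of the 489637 in the table. Of these, 217 had enough signal to be tested, out of 124901 tested regions in all. ATAC-seq reads mark DNA that a transposase can reach, so the signal of a region stands for its openness and not for the amount of RNA or protein made from the gene.

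Calcineurin is a phosphatase that calcium and calmodulin switch on. A catalytic subunit (Ppp3ca or Ppp3cb in most tissues) pairs with the calcium-binding regulatory subunit Ppp3r1, and the active enzyme removes phosphates from NFAT proteins, which then enter the nucleus and bind DNA. Rcan1 and Rcan2 bind calcineurin and restrain it, and a short transcript of Rcan1 is itself a known target of NFAT. In skeletal muscle the pathway is known for its part in the slow, oxidative fibre programme and in the growth and repair of fibres.

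The study compared 4 vehicle libraries with 4 libraries labelled iMSBmal1KO, all from the gastrocnemius, a calf muscle, of mice 6 months old. Every mouse of both groups carried the same genotype, written Cre+:iMSBmal1 fl/fl, and the treatment label was Vehicle in the first group and Tamoxifen in the second. The library titles of both groups also carry the word Control, which the titles do not explain. The knockout label names an inducible loss of Bmal1, the clock transcription factor that binds DNA with CLOCK, so tamoxifen and the loss of Bmal1 cannot be told apart in this design. Each preparation used a pair of whole muscles and therefore holds nuclei of every cell type of the muscle. In such a bulk sample, fewer nuclei of a type and less accessibility per nucleus cannot be told apart. The labels name neither the promoter that drives Cre nor the time of day of collection. They do not say that each library came from separate mice, so p-values measure the spread between these libraries, which may be technical.

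Depth ran from 4.31 to 29.5 M read equivalents (M, mega). Vehicle library 4 stood apart, with the lowest depth, 24.9% of all regions at 0 and 16.5% of its read equivalents on the mitochondrial chromosome, against 1.11% to 5.51% in the other libraries. For many changes named below that moved by over 1.5 times without it, the value without it is given. A change with no such value was not thereby shown to be stable without it. The summed signal of Bmal1 itself, listed as Arntl, was 1942 to 2688 in vehicle and 3023 to 3421 in iMSBmal1KO, and the labels do not name the deleted exon, so this sum does not check the labels. At the starts of 8 muscle fibre genes the summed signal was 11212 to 18805 in vehicle and 13989 to 17412 in iMSBmal1KO. Sums over the starts of markers of 6 other cell types were far lower, from 2.57 for lymphocytes (2 of 4 markers with a start region) to 615 for fibro-adipogenic cells (5 of 5), and overlapped between the groups for each of these types. Macrophage starts (1 of 4) summed to 3.13 to 5.33 in vehicle and 3.42 to 6.69 in iMSBmal1KO. No start region was listed for 8 of these markers, Calcr, Emcn, Adgre1, Cd68, Mrc1, Cd3e, Cd79a and Rgs5.

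None of the 217 tested regions of the calcineurin and NFAT genes differed between the groups after adjustment. In the fit used throughout (limma on log2(signal + 1), Benjamini-Hochberg over all tested regions, threshold 0.05), 0 of 217 regions were called, where 0.0881% of all tested regions were called. At an unadjusted p under 0.05 there were 9, of which 4 were higher and 5 lower in iMSBmal1KO. These 9 are 4.15% of the regions, below the 9.22% of all tested regions (6.59% higher and 2.63% lower). In 10 regions the values of the groups did not overlap, 3 higher and 7 lower. That is 4.61% of the regions, against 5.48% of all tested regions (3.62% higher and 1.87% lower).

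The log2 changes went both ways, from -1.39 in Nfatc2 intron 5 to 1.49 in Ppp3r1 intron 1, with a small median. The median log2 change over the 217 regions was 0.08, beside 0.12 over all tested regions, and 93 regions (42.9%) lay below 0, beside 38% of all. With other scalings of the libraries the median of all regions moved to 0.01 (median-of-ratios, trimmed-mean and loess), and 114 to 116 of the 217 regions then lay below 0. Each of the 42 single changes followed through the settings moved down with each of these scalings. The changes of Nfatc2 and Ppp3ca are therefore also given relative to the median of all regions. Counted that way, the medians of the other genes ran from -0.20 for Ppp3cb (5 tested regions) to 0.84 for Ppp3r1 (3 tested regions). Many regions are neighbours: 270 of the 617 (43.8%) abut another region of the same gene, so they are not independent of each other.

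**Figure D1:**
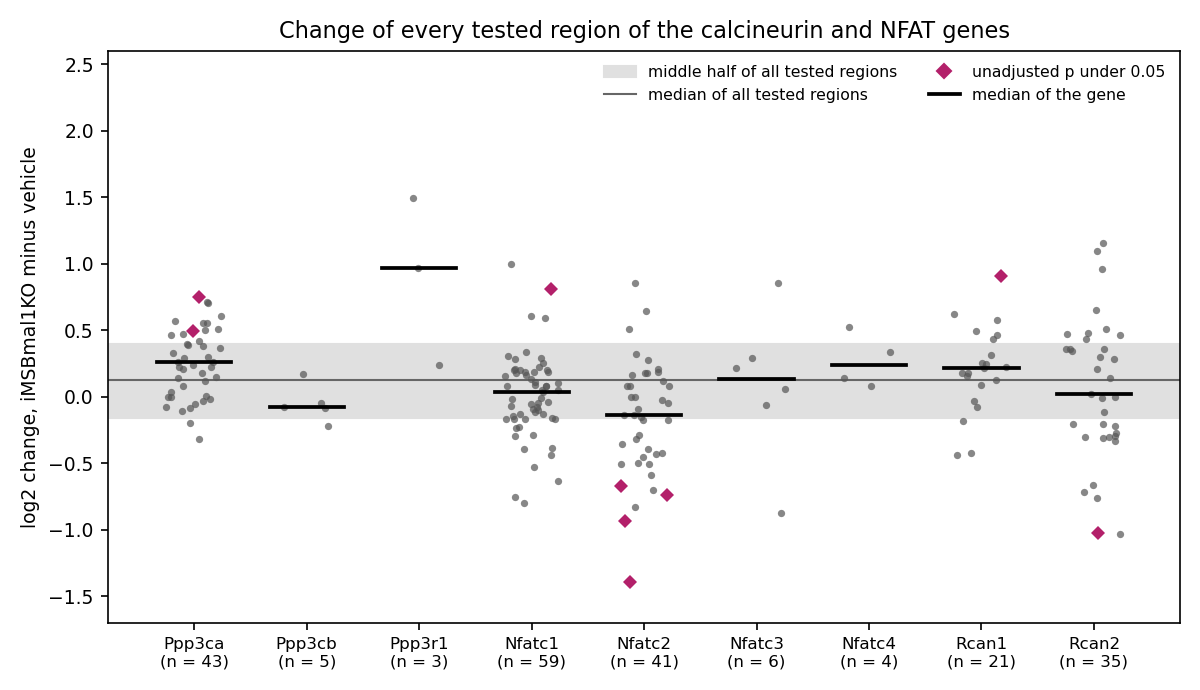
Each point is a tested region of a gene (x axis), placed by its log2 change, iMSBmal1KO minus vehicle (y axis), with 4 libraries in each group. The grey band and line give the interquartile range and the median of all 124901 tested regions, black bars give each gene's median, and diamonds mark the 9 regions with an unadjusted p under 0.05. Most points lie inside or near the band, and the 4 diamonds of Nfatc2 all lie below the band.

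The sum over all regions of a gene gives 1 value per library for each gene. None of the 9 sums passed the threshold (limma, Benjamini-Hochberg over 22224 gene sums, 0.13% of which were called), none had an unadjusted p under 0.05 (9.48% of all sums did), and none had groups that did not overlap (4.94% of all sums). These counts are those of the main fit, and the Nfatc2 sum under other settings is given with its gene. Log2 changes of the sums ran from -0.21 for Nfatc2 to 0.25 for Nfatc4, with 4 of 9 below 0, beside 33.4% of all sums. The 95% interval of each sum, given with its gene below, is the range of changes compatible with these libraries, without adjustment for the number of sums.

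**Figure D2:**
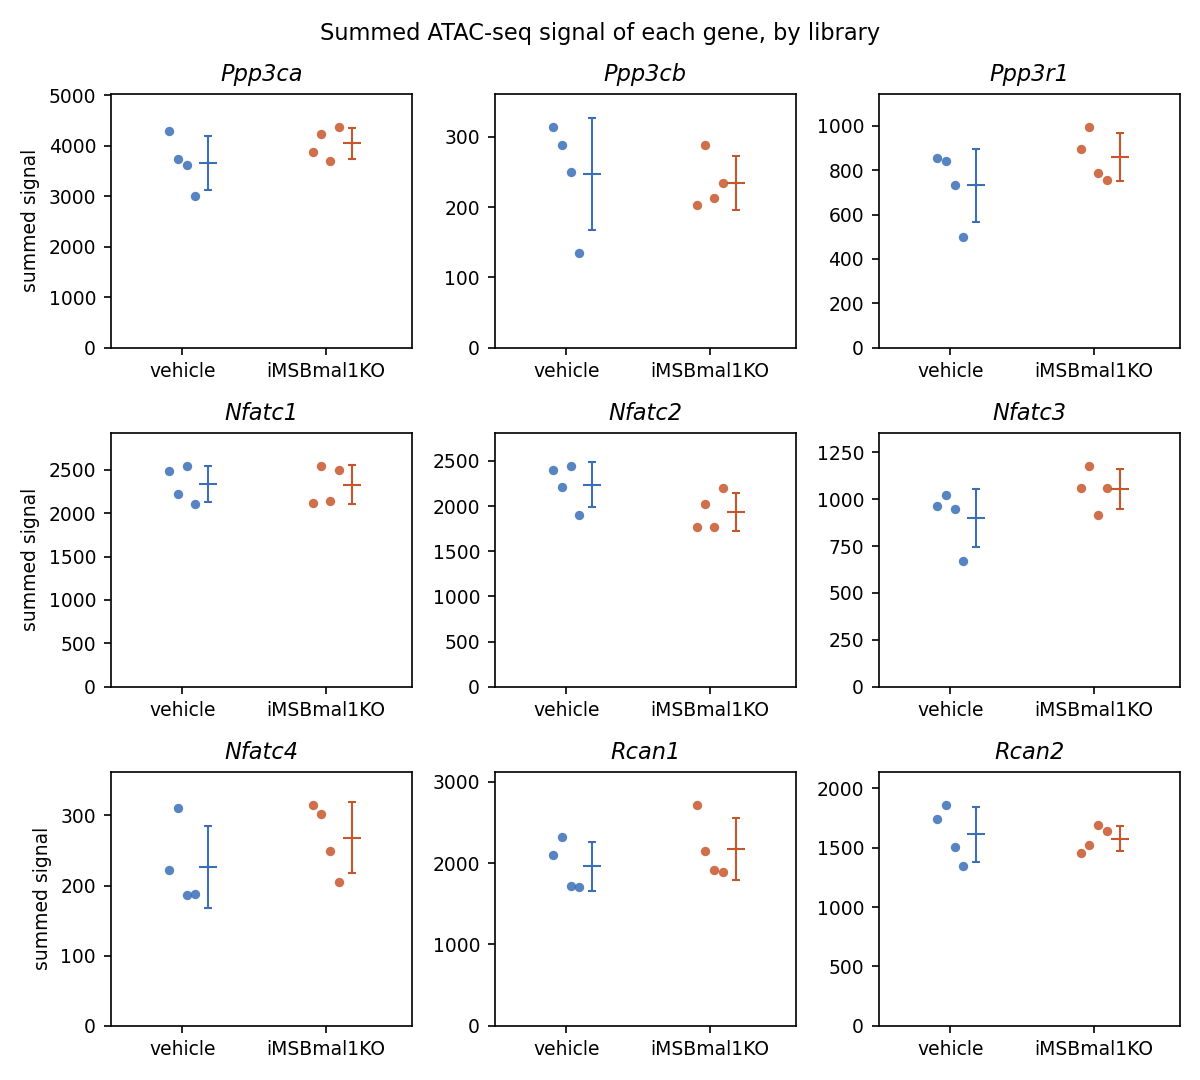
The y axis of each panel is the signal summed over all regions of a gene, one point per library, with the mean and SD (n = 4) of the vehicle and iMSBmal1KO groups beside the points. Axes start at 0. The groups overlap in all 9 panels, and vehicle library 4 is the lowest vehicle value in 8 of 9, all but Nfatc4.

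The start regions of these genes differed widely in openness. The strongest start of a gene is the one with the highest signal of the whole region, not the highest signal per length. Per 100 bp of region, averaged over the 8 libraries, the strongest start of Rcan1 held a signal of 200.4 and that of Ppp3ca 175. Ppp3r1 followed with 108, then Nfatc3 with 75.9, Nfatc2 with 49.4, Nfatc1 with 41.6, Rcan2 with 34.8, the start listed for Ppp3cb with 31.4 and Nfatc4 with 29.6. A further open start of Rcan1 held 77.0 and another of Rcan2 60.0, while the region at the RefSeq start of Ppp3cb, which the table lists under another gene, held 82.6. Over the 8 libraries the values of neighbours in this order overlapped, except that every value of Ppp3ca (142.9 to 211) lay above every value of Ppp3r1 (67.9 to 136). Compared within each library, Ppp3ca lay above Ppp3r1, and Ppp3r1 above the RefSeq start of Ppp3cb, in all 8. For the other neighbours by mean, the start with the higher mean was above the next in 4 to 7 of the 8 libraries. Signal per length compares regions on the deposited scale only and is not a level of expression.

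Ppp3ca encodes the catalytic subunit calcineurin A alpha, the main form in many tissues. The gene lies on chromosome 3, 136670124 to 136935780 on the + strand, and had 146 regions, 43 of them tested. Its strongest region covers the RefSeq start, 136669453 to 136670232, and held 35.4% of the signal of the gene. The signal there was 1643, 1409.6, 1310.4 and 1113 in vehicle libraries 1 to 4 and 1344, 1456, 1158 and 1465 in iMSBmal1KO libraries 1 to 4. The groups overlapped fully, with a log2 change of -0.01 ± 0.17 (SE, adjusted p in limma 0.993, and -0.10 without vehicle library 4).

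Outside the start, the strongest Ppp3ca region lies in intron 2, 136802531 to 136803099, 133 kb into the gene. Its signal was 472, 377, 261 and 244 in vehicle and 381, 474, 451 and 543 in iMSBmal1KO. Vehicle libraries 3 and 4 were low and the groups overlapped, with a log2 change of 0.49 ± 0.22 (SE, unadjusted p of 0.0368, adjusted p in limma 0.528). The smallest p of the gene fell on a narrow region at the start of a protein-coding transcript, 136670606 to 136670789. There the signal was 48.0, 40.1, 54.7 and 15.6 in vehicle and 68.1, 56.0, 54.9 and 66.5 in iMSBmal1KO. The groups did not overlap, though the gap between 54.7 and 54.9 was narrow and vehicle library 4 held only 5 read equivalents (log2 change 0.75 ± 0.32, SE, adjusted p in limma 0.516). Without vehicle library 4 its log2 change was 0.37.

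Across the gene, 34 of the 43 tested Ppp3ca regions had a log2 change above 0 and 9 below, where 38% of all tested regions lay below 0. The median of the 43 regions, 0.26, became 0.14 when counted from the median of all regions. The number above 0 was 28 without vehicle library 4 and 28 to 30 with the 3 other scalings. The median relative to all regions was 0.088 to 0.14 in all of these and when any other library was left out. It was 0.056 with a stricter filter that left 18 regions. Median-of-ratios and trimmed-mean factors shift all regions by nearly the same amount, so the relative median could hardly move with them. Summed over the gene, the signal was 4295, 3727, 3611 and 2995 in vehicle and 3883, 4224, 3701 and 4375 in iMSBmal1KO. Vehicle library 4 lay below every other library, and the means were 3657 ± 533 in vehicle and 4046 ± 309 in iMSBmal1KO (n = 4 each, SD). Its log2 change was 0.15 with a 95% interval of -0.13 to 0.44 (adjusted p in limma 0.674), and it was 0.062 without that library, 0.24 without vehicle library 1 and 0.036 with median-of-ratios factors.

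**Figure D3:**
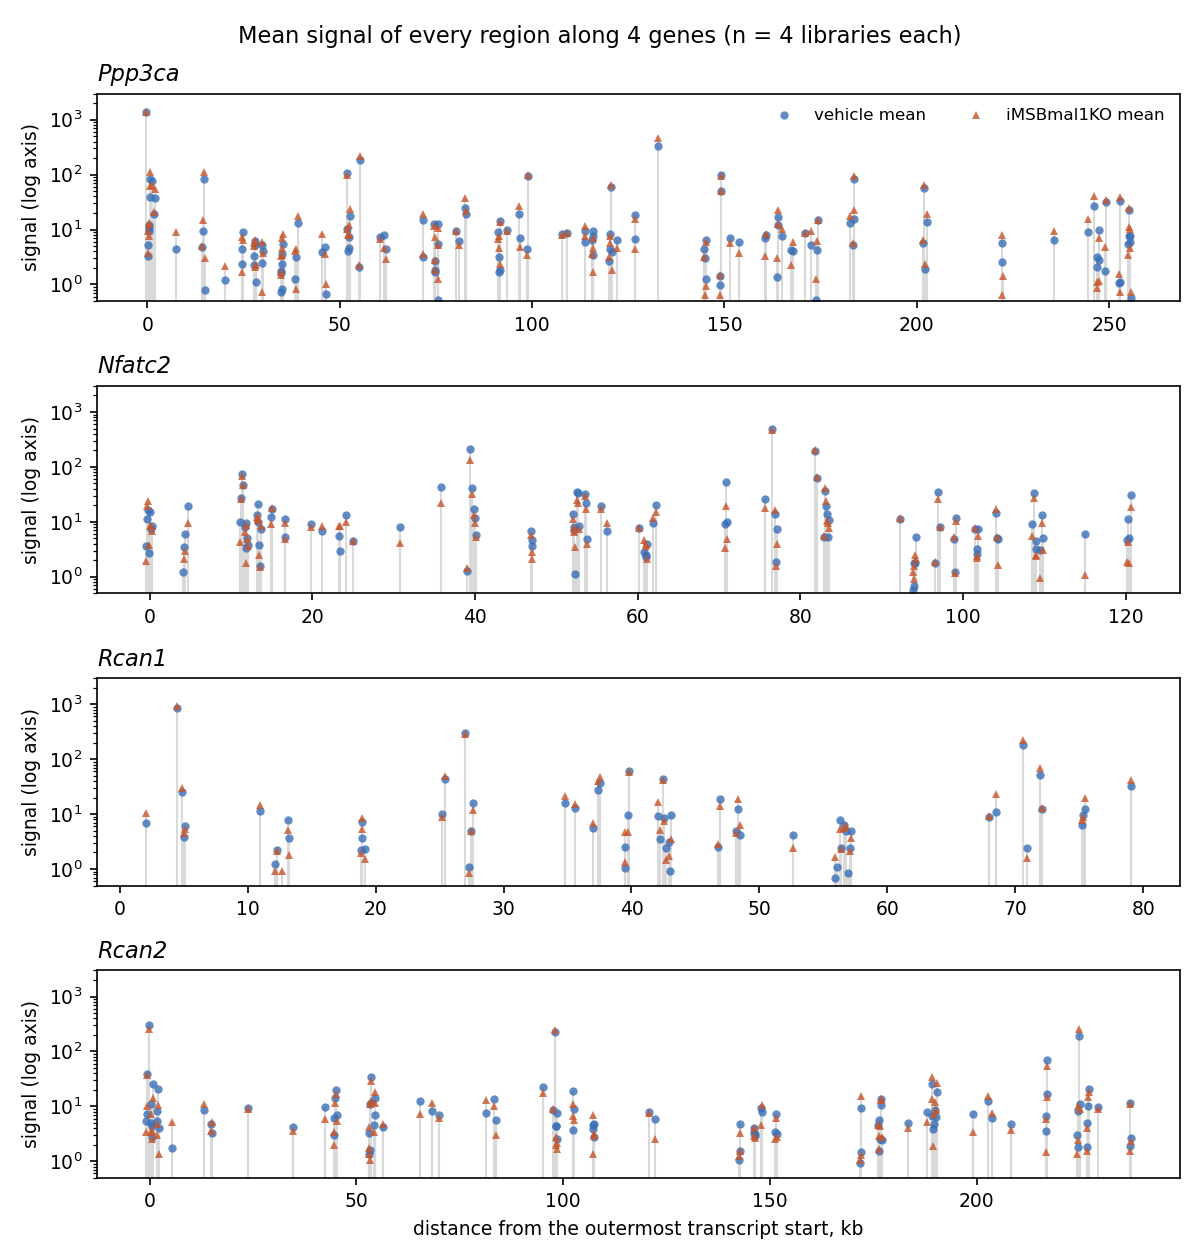
Each mark is a region of Ppp3ca, Nfatc2, Rcan1 or Rcan2, placed by its distance from the outermost annotated transcript start (x axis, kb) and by its mean signal on a log axis (y axis); circles are vehicle means and triangles iMSBmal1KO means (n = 4 each). Regions with a mean below the axis are not visible. In each gene a few strong regions stand over many weak ones, and circle and triangle part at the Nfatc2 regions at 39.4 and 70.8 kb, at Ppp3ca intron 2 and at the second open start of Rcan2.

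Ppp3cb encodes the other widely expressed catalytic subunit, calcineurin A beta. The gene, on chromosome 14 (20499364 to 20546574, - strand), had few listed regions: only 16 regions carried its name, 5 of them tested. The strongest of its listed start regions, 20519540 to 20519708, lies beside an internal transcript that is annotated as a retained intron. Its signal was 64.0, 51.4, 58.5 and 37.5 in vehicle and 61.6, 63.6, 28.6 and 56.4 in iMSBmal1KO, so the groups overlapped (log2 change -0.04 ± 0.29, SE, and -0.20 without vehicle library 4). An intron 12 region, 20506470 to 20506656, held 36.2, 67.8, 61.0 and 12.5 in vehicle and 40.2, 44.3, 33.4 and 25.1 in iMSBmal1KO. The smallest p of the gene was 0.471, in intron 1 at 20520302 to 20520438 (log2 change -0.22 ± 0.30, SE, adjusted p in limma 0.818, and -0.41 to -0.065 when any 1 library was left out).

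The start of the full-length Ppp3cb transcript in RefSeq lies inside a strong region that the table lists under the neighbouring gene 1810062O18Rik, 20545841 to 20546773. That region is not counted among the 617 and was looked at after its values were seen. Its signal was 769, 828, 721 and 532 in vehicle and 731, 938, 767 and 871 in iMSBmal1KO. The groups overlapped, with a log2 change of 0.23 ± 0.18 (SE, adjusted p in limma 0.685) that was 0.093 without vehicle library 4. The summed signal under the name Ppp3cb, 247 ± 79.5 in vehicle and 234 ± 37.9 in iMSBmal1KO (n = 4 each, SD), thus leaves out the promoter (log2 change -0.02, 95% interval -0.48 to 0.44, adjusted p in limma 0.981, and -0.29 without vehicle library 4).

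Promoter sequences of 7 of the 9 genes were available from RefSeq (GRCm38.p6), 12 starts in all, and Ppp3ca and Nfatc1 had none. The 250 bases before each start were searched on both strands for 2 motifs, which do not overlap each other. The first is CACGTG, the E-box that BMAL1 and CLOCK bind, found in 6.02% of the 32851 mouse promoters of the same length. The second is GGAAA, the core that NFAT proteins bind, found at least once in 55.6% of promoters and at least 3 times in 6.39%. The Ppp3cb promoter held 3 GGAAA cores, as did one promoter each of Nfatc2, Nfatc4 and Rcan1, and it is shown because the open region at its start is listed under another name. In it and in the sequences below, capitals mark the motif matches on either strand (TTTCC is GGAAA read on the other strand). A match is a description of the letters and not a bound site. Promoters differed in CG dinucleotides, with 6 as the median of all promoters: those of Ppp3r1 held 29, upstream Rcan1 24 and the open start of Nfatc3 22, while the weakly open start of Nfatc3 held 6 and the Ppp3cb promoter 10. The promoter of the outermost Nfatc2 start held 19, that of its inner start 16 and that of the internal Rcan1 start 11. Nfatc4 held 8 and the promoters of Rcan2 3, 16 and 5. A relation of these counts to openness was not tested.
Ppp3cb promoter, chr14:20546574-20546823, - strand: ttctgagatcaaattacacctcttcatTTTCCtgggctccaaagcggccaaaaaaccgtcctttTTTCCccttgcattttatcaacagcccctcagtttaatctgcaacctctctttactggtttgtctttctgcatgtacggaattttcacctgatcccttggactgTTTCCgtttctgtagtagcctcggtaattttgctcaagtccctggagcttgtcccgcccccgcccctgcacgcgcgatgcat

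Ppp3r1 encodes a form of calcineurin B, the regulatory subunit that active calcineurin needs. The gene, on chromosome 11 (17159263 to 17200376, + strand), had 12 regions, 3 of them tested. The start region, 17158893 to 17159570, held 91.7% of the signal of the gene. It measured 802, 769.6, 669 and 459.6 in vehicle and 828, 923, 686 and 699.98 in iMSBmal1KO. Vehicle library 4 was the lowest and the other values overlapped (log2 change 0.24 ± 0.20, SE, adjusted p in limma 0.693, and 0.064 without that library). Its promoter held neither motif.

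A pair of weak regions just inside intron 1 of Ppp3r1 had larger estimates that rested on vehicle library 4. At 17160469 to 17160598 the signal was 18.1, 27.7, 22.2 and 3.13 in vehicle and 23.5, 27.6, 37.0 and 27.6 in iMSBmal1KO (log2 change 0.96 ± 0.49, SE, adjusted p in limma 0.559). At 17160242 to 17160447 it was 10.7, 20.5, 6.35 and 0 in vehicle and 16.7, 16.7, 20.3 and 16.3 in iMSBmal1KO (log2 change 1.49 ± 0.73, SE, adjusted p in limma 0.554). Vehicle library 4 held 1 read equivalent at the first and 0 at the second, and without it the changes were 0.34 and 0.59. The sum over Ppp3r1 was 732 ± 166 in vehicle and 859 ± 110 in iMSBmal1KO (n = 4 each, SD), a log2 change of 0.25 with a 95% interval of -0.11 to 0.62 (adjusted p in limma 0.609) that was 0.08 without vehicle library 4.

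Nfatc1 is the NFAT gene whose short transcript NFAT itself is known to induce, and it has been studied in slow fibres and in muscle stem cells. It lies on chromosome 18, 80606205 to 80712767 on the - strand, and had 114 regions. With 59 of them tested it had the most tested regions of the 9 genes, but no dominant one: the strongest held 6.57% of its signal. That region, in intron 6 at 80656540 to 80656881, measured 209, 146, 149 and 163 in vehicle and 133, 151, 131 and 146 in iMSBmal1KO. Vehicle library 1 was high and the other 7 values lay close together (log2 change -0.24 ± 0.21, SE, adjusted p in limma 0.707, and -0.12 without vehicle library 1).

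A neighbouring intron 6 region of Nfatc1, 80657730 to 80657851, had the smallest p among the regions that were higher in iMSBmal1KO. It measured 48.0, 36.0, 33.7 and 50.03 in vehicle and 76.6, 72.8, 63.2 and 81.5 in iMSBmal1KO. Every iMSBmal1KO value lay above every vehicle value, with a log2 change of 0.81 ± 0.25 (SE, unadjusted p of 0.00344), but it did not pass after adjustment (adjusted p in limma 0.362, and 0.138 to 0.772 over the other settings). The strongest start region, 80708358 to 80708512, went the other way, with 71.4, 54.5, 69.9 and 109 in vehicle and 51.6, 59.4, 38.2 and 57.7 in iMSBmal1KO. The groups overlapped there (log2 change -0.53 ± 0.26, SE, adjusted p in limma 0.551, and -0.34 without vehicle library 4). A weak region in coding exon 2 of Nfatc1, 80698496 to 80698661, also had separate groups, with 12.8, 12.3, 15.3 and 15.6 in vehicle and 4.28, 9.20, 10.7 and 8.78 in iMSBmal1KO (5 to 24 read equivalents, log2 change -0.75 ± 0.40, SE, adjusted p in limma 0.564). Over the gene 29 tested regions lay below 0 and 30 above, and the summed signal averaged 2342 ± 207 in vehicle and 2327 ± 226 in iMSBmal1KO (n = 4 each, SD, log2 change -0.01, 95% interval -0.29 to 0.27, adjusted p in limma 0.983, and -0.059 without vehicle library 4).

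Nfatc2 encodes NFAT1, known in muscle for the recruitment of myoblasts to growing fibres. It held 4 of the 5 lower regions at an unadjusted p under 0.05 and 5 of the 7 lower regions whose groups did not overlap. These are 4 and 5 of its 41 tested regions, beside 2.63% and 1.87% of all tested regions. It lies on chromosome 2, 168476410 to 168601658 on the - strand, with 113 regions and 41 tested. Of the 41, 27 had a log2 change below 0, beside 38% of all tested regions, and 31 lay below the median of all tested regions. The gene's median was -0.14, which is -0.26 when counted from the median of all regions. With each of the 3 other scalings the relative median was also -0.26. Median-of-ratios and trimmed-mean factors shift all regions by nearly the same amount, so the relative median could hardly move with them. When any 1 library was left out it ran from -0.36 to -0.18, nearest to 0 without iMSBmal1KO library 3. With limma-voom it was -0.45, and without a filter, over 113 regions, it was -0.17.

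The smallest p of all 217 regions fell in intron 5 of Nfatc2, at 168530742 to 168530901, 70.8 kb from the outermost start. Its signal was 70.4, 49.3, 57.2 and 34.4 in vehicle and 14.98, 26.8, 13.1 and 23.8 in iMSBmal1KO. The lowest vehicle value, that of library 4, lay above the highest iMSBmal1KO value, and the means of the groups came to 52.8 ± 15.04 and 19.7 ± 6.65 (n = 4 each, SD). The log2 change was -1.39 ± 0.31 (SE) with an unadjusted p of 2.14e-04 and a adjusted p in limma 0.116, so it was not called on the deposited scaling. The call depended on the scaling and on the shallow library. Without vehicle library 4 the limma adjusted p was 0.0149, and with median-of-ratios factors, trimmed-mean factors, loess and limma-voom it was 0.0242, 0.0241, 0.0162 and 0.0135. It ran up to 0.415, without iMSBmal1KO library 3, over the 17 other settings tried. Between 11 and 90 read equivalents per library stand behind these values.

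A pair of regions in intron 3 of Nfatc2 was also lower in iMSBmal1KO without overlap of the groups, and neither passed after adjustment. These were described after their values were seen. The stronger, 168562134 to 168562474, measured 235, 197, 226 and 191 in vehicle and 97.6, 120.4, 139.6 and 186 in iMSBmal1KO. Library 4 of iMSBmal1KO came close to the vehicle values while the other 3 stood well below them (log2 change -0.67 ± 0.22, SE, unadjusted p of 0.00646, adjusted p in limma 0.425). The weaker, 168565695 to 168565969, measured 30.9, 42.1, 53.4 and 43.8 in vehicle and 18.4, 28.4, 14.3 and 27.6 in iMSBmal1KO (log2 change -0.94 ± 0.30, SE, unadjusted p of 0.00541, adjusted p in limma 0.407). Further into intron 3, abutting regions at 168548999 and 168549068 had log2 changes of -0.59 and -0.51 with separate groups.

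At the end of the gene, a region in a 3' UTR exon, 168480936 to 168481142, measured 40.51, 30.8, 31.1 and 21.9 in vehicle and 17.98, 23.4, 11.9 and 20.1 in iMSBmal1KO. The groups overlapped only through vehicle library 4 and iMSBmal1KO library 2 (log2 change -0.74 ± 0.31, SE, adjusted p in limma 0.511). Summed over all regions annotated to the 3' UTR exon of Nfatc2, the signal was 59.7, 63.7, 61.6 and 46.9 in vehicle and 27.4, 31.8, 22.7 and 27.6 in iMSBmal1KO. The groups did not overlap and the values within a group were close, with a log2 change of -1.06 ± 0.23 (SE, unadjusted p of 1.65e-04, adjusted p in limma 0.0940). Of the 33 sums of a gene and gene section that were tested, this was the only one with an unadjusted p under 0.05 or with separate groups, and 0 of 33 passed after adjustment, where 0.108% of all 41562 such sums passed. Lower sums with an unadjusted p under 0.05 made up 2.69% of all sums and lower sums without overlap 1.64%. The sum was called in 5 other settings, with adjusted p in limma 0.0253 without vehicle library 4 and 0.0246, 0.0247, 0.0366 and 0.0342 with median-of-ratios factors, trimmed-mean factors, loess and limma-voom, and ran from 0.0246 to 0.357 over all 17.

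**Figure D4:**
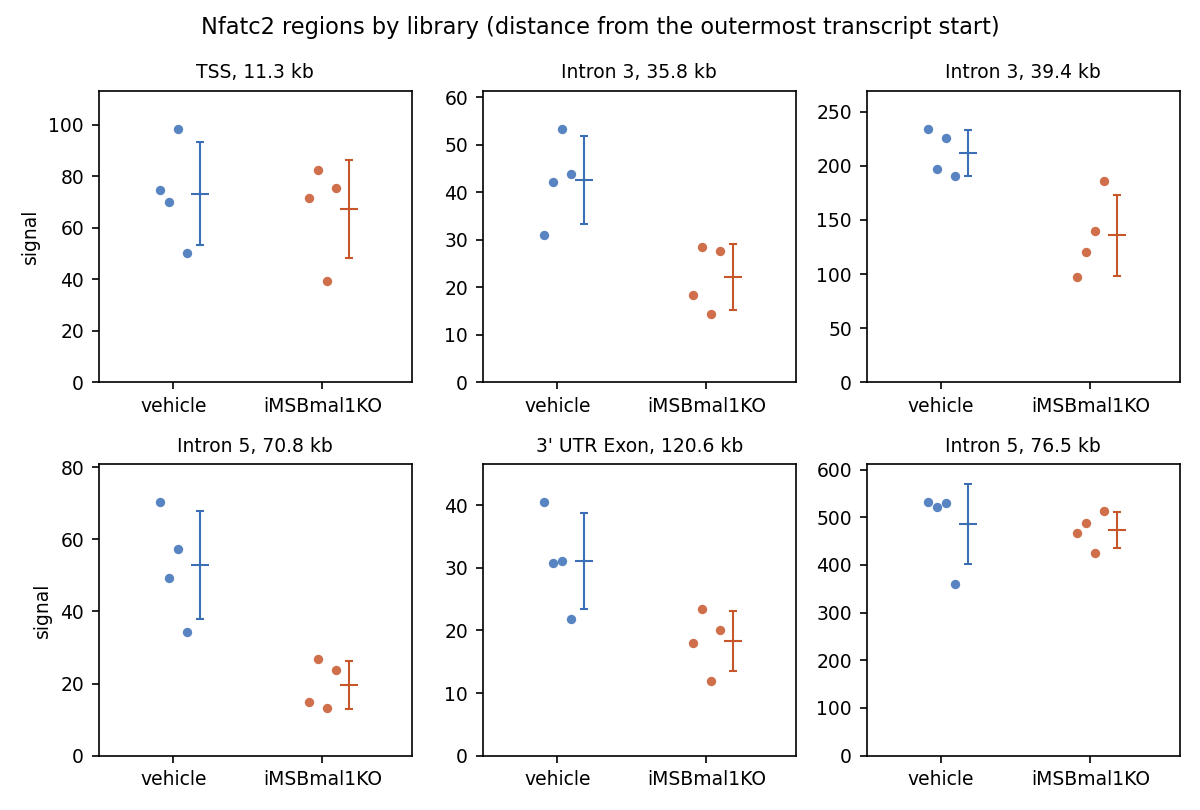
Signal of 6 Nfatc2 regions (y axes, starting at 0), one point per library with mean and SD (n = 4) beside the points, each panel titled with the annotated section and the distance from the outermost transcript start. The strongest start region at 11.3 kb and the strongest region of the gene at 76.5 kb overlap between the groups, while the 4 regions at 35.8, 39.4, 70.8 and 120.6 kb lie lower in iMSBmal1KO, the last of them with overlap.

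At the strongest regions of Nfatc2 the groups overlapped. The region with the highest signal, in intron 5 at 168524872 to 168525373, only a few kb from the lower one, measured 532, 522, 531 and 359.6 in vehicle and 467, 488, 425 and 513 in iMSBmal1KO. Apart from vehicle library 4 the values lay close together (log2 change -0.02 ± 0.19, SE, adjusted p in limma 0.975, and -0.16 without that library). The strongest start region, 168590281 to 168590423, measured 74.6, 69.9, 98.5 and 50.03 in vehicle and 71.5, 82.5, 39.4 and 75.3 in iMSBmal1KO, with full overlap (log2 change -0.14 ± 0.28, SE, adjusted p in limma 0.886, and -0.30 without vehicle library 4). Summed over the gene, the signal was 2400.5, 2208, 2448 and 1898 in vehicle and 1764, 2022, 1771 and 2198 in iMSBmal1KO. The values interleaved, with means of 2239 ± 250 in vehicle and 1939 ± 210 in iMSBmal1KO (n = 4 each, SD), a log2 change of -0.21 with a 95% interval of -0.50 to 0.08 (adjusted p in limma 0.608). With median-of-ratios factors, trimmed-mean factors and loess it was -0.32, -0.32 and -0.27 (unadjusted p in limma 0.00371, 0.00324 and 0.00562). Without vehicle library 4 it was -0.28 (unadjusted p in limma 0.0224). The sum passed after adjustment in no setting (adjusted p in limma 0.246 to 0.933).

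The outermost Nfatc2 start in RefSeq is covered by a listed region. The strongest of the 3 regions that overlap its promoter, 168601836 to 168601950, was weakly open, with a mean signal of 20.1 over the 8 libraries. The promoter of this start is shown because it holds 3 GGAAA cores, whereas the promoter of the more open inner start holds 1. Neither holds the E-box.
Nfatc2 outer promoter, chr2:168601658-168601907, - strand: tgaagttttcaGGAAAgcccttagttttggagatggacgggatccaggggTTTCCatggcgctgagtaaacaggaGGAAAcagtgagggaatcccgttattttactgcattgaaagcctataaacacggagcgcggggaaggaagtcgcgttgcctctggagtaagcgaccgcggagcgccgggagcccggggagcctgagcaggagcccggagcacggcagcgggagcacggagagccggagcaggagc

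Nfatc3 encodes NFAT4, a form known in immature muscle cells as well as in lymphocytes. It lies on chromosome 8, 106058840 to 106130538 on the + strand, with 36 regions and 6 tested. Its start region, 106059244 to 106060221, held 75.9% of its signal and measured 760.0, 769, 697 and 463 in vehicle and 838, 937, 707 and 763 in iMSBmal1KO. The groups overlapped, with vehicle library 4 the lowest (log2 change 0.29 ± 0.19, SE, adjusted p in limma 0.624, and 0.12 without that library). The E-box of this start lies 143 bases before it, inside the open region, and is shown with the bases around it.
Nfatc3 E-box, chr8:106059435-106059464, + strand: gcgcttcttgctCACGTGacttcctcctcg

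The smallest p of Nfatc3 fell on a weak region at its other start, 106058718 to 106058825, with 11.7, 14.4, 10.8 and 12.5 in vehicle and 6.42, 12.5, 3.58 and 5.02 in iMSBmal1KO (log2 change -0.87 ± 0.49, SE, adjusted p in limma 0.581). Only 3 to 17 read equivalents per library were behind it. In intron 1, at 106076805 to 106076940, the signal lay between 17.6 and 25.05 in all 8 libraries. The sum over the gene was 900 ± 157 in vehicle and 1055 ± 108 in iMSBmal1KO (n = 4 each, SD, log2 change 0.24, 95% interval -0.09 to 0.57, adjusted p in limma 0.600), and its log2 change was 0.11 without vehicle library 4.

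Nfatc4 encodes NFAT3, best known from the heart. The gene, also on chromosome 14 (55823144 to 55833638, + strand), had 7 regions, the fewest of the 9 genes, with 4 tested. Its strongest region, upstream of an annotated start at 55822635 to 55822860, measured 61.8, 83.2, 44.5 and 31.3 in vehicle and 91.6, 102.9, 70.4 and 47.7 in iMSBmal1KO. That region is not at the RefSeq start, 55824795. No listed region covers the RefSeq start or overlaps the promoter searched for motifs. All 4 tested regions had estimates above 0, from 0.08 to 0.53, but the groups overlapped (for the strongest, log2 change 0.53 ± 0.31, SE, adjusted p in limma 0.589, and 0.29 without vehicle library 4). The summed signal averaged 227 ± 58.1 in vehicle and 268 ± 50.6 in iMSBmal1KO (n = 4 each, SD, log2 change 0.25, 95% interval -0.15 to 0.65, adjusted p in limma 0.636), and the change was 0.42 without vehicle library 2.

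Rcan1 encodes the inhibitor regulator of calcineurin 1, with a long transcript from an upstream start and a short one from an internal start that calcineurin and NFAT are known to drive. The gene lies on chromosome 16, 92391953 to 92470868 on the - strand, with 63 regions and 21 tested. The promoters of the starts are shown because they hold different motifs. The upstream promoter holds the E-box, 191 bases before the start, and no GGAAA core. The internal promoter holds 3 GGAAA cores, all inside the open region just before that start, and no E-box.
Rcan1 upstream promoter, chr16:92466170-92466419, - strand: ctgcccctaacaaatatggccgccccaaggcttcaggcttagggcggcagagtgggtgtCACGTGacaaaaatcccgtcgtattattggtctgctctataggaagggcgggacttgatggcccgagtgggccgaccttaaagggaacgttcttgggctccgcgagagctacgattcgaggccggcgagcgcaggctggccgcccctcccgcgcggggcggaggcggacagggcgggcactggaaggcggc
Rcan1 internal promoter, chr16:92400079-92400328, - strand: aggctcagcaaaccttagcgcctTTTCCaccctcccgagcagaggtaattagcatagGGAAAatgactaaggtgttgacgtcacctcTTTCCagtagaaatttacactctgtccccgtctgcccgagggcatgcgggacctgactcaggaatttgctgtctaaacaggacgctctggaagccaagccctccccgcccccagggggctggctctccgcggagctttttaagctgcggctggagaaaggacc

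At the upstream start of Rcan1, the region 92466128 to 92466575 covers the whole promoter printed above. It measured 1011, 921, 856 and 607 in vehicle and 936, 1047, 889.9 and 901 in iMSBmal1KO. Apart from vehicle library 4 the values lay close together and the groups overlapped (log2 change 0.18 ± 0.18, SE, adjusted p in limma 0.756, 0.022 without that library and 0.27 without vehicle library 1). The E-box promoter was thus open in both groups, with no difference detectable beyond the spread. At the internal start, 92400142 to 92400401, the signal was 151, 255, 113 and 200.1 in vehicle and 354, 226, 191 and 105 in iMSBmal1KO. It varied more than 3-fold within the iMSBmal1KO group alone, which is larger than the difference between the group means (log2 change 0.22 ± 0.33, SE, adjusted p in limma 0.838). The log2 change was -0.053 without iMSBmal1KO library 1, the highest value, 0.53 without iMSBmal1KO library 4, 0.41 without vehicle library 2 and 0.019 without vehicle library 3.

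The second most open region of Rcan1, 92443649 to 92444184, lies between the starts and is annotated to a 5' UTR exon. It measured 343, 305, 243 and 285 in vehicle and 293, 306, 287 and 258 in iMSBmal1KO (log2 change -0.03 ± 0.19, SE, adjusted p in limma 0.967). The smallest p of Rcan1 belonged to a weak region with the same annotation, 92428704 to 92428839, with 8.53, 16.4, 9.53 and 3.13 in vehicle and 20.1, 19.2, 14.3 and 12.5 in iMSBmal1KO (log2 change 0.90 ± 0.42, SE, unadjusted p of 0.0448, adjusted p in limma 0.535). Vehicle library 4 held 1 read equivalent there, and without it the log2 change was 0.52. Near the transcript end, at 92398826 to 92399033, the signal was 51.2, 86.3, 30.5 and 34.4 in vehicle and 127, 57.7, 48.9 and 47.7 in iMSBmal1KO (log2 change 0.46 ± 0.35, SE, adjusted p in limma 0.669). Library 1 of iMSBmal1KO was the highest both there and at the internal start. Without it the change near the transcript end was 0.14, without vehicle library 3 it was 0.27 and without vehicle library 2 it was 0.75. Summed over Rcan1, the signal was 2099, 2323, 1719 and 1704 in vehicle and 2718, 2147.5, 1919 and 1893 in iMSBmal1KO. Its mean was 1961 ± 303 in vehicle and 2169 ± 383 in iMSBmal1KO (n = 4 each, SD, log2 change 0.14, 95% interval -0.18 to 0.46, adjusted p in limma 0.738), and its log2 change was 0.03 without iMSBmal1KO library 1 and 0.079 without vehicle library 4.

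Rcan2 encodes the second regulator of calcineurin, which is expressed in muscle, heart and brain. It lies on chromosome 17, 43801844 to 44039513 on the + strand, with 110 regions and 35 tested, and had several open starts. The strongest, 43801298 to 43802097, measured 341, 358, 245 and 259.5 in vehicle and 255, 213, 280.3 and 276 in iMSBmal1KO (log2 change -0.22 ± 0.20, SE, adjusted p in limma 0.721, -0.13 without vehicle library 2 and -0.14 without iMSBmal1KO library 2). Another, 44026519 to 44026889, which starts a shorter transcript 225 kb further on, measured 246, 232, 179 and 106 in vehicle and 202, 263, 252 and 295 in iMSBmal1KO (log2 change 0.46 ± 0.25, SE, adjusted p in limma 0.567, and 0.21 without vehicle library 4). The estimates at these starts had opposite signs, and the groups overlapped at both. A difference between the starts was not tested.

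In intron 2 of Rcan2, the region 43899550 to 43900005 measured 286, 282, 180.5 and 153 in vehicle and 188, 250.04, 268 and 261 in iMSBmal1KO (log2 change 0.14 ± 0.23, SE, adjusted p in limma 0.853). The smallest p of the gene fell just after the strongest start, at 43802551 to 43802660, annotated as 5' UTR exon. It measured 21.3, 32.9, 26.1 and 21.9 in vehicle and 12.8, 15.1, 25.05 and 3.76 in iMSBmal1KO (log2 change -1.02 ± 0.42, SE, unadjusted p of 0.0241, adjusted p in limma 0.505). Library 3 of iMSBmal1KO lay among the vehicle values, and without iMSBmal1KO library 4, which held 3 read equivalents, the change was -0.54. A pair of weak intron 2 regions, singled out after their values were seen, had groups that did not overlap, in opposite directions. At 43904175 the signal was 14.9, 29.8, 18.4 and 12.5 in vehicle and 10.3, 11.7, 11.9 and 10.04 in iMSBmal1KO (log2 change -0.66 ± 0.35, SE, adjusted p in limma 0.562). At 43973737 it was 9.59, 8.22, 10.2 and 9.38 in vehicle and 14.1, 22.6, 13.1 and 12.5 in iMSBmal1KO (log2 change 0.65 ± 0.35, SE, adjusted p in limma 0.572). Of the tested Rcan2 regions 17 lay below 0 and 18 above, and the summed signal averaged 1614 ± 233 in vehicle and 1577 ± 108 in iMSBmal1KO (n = 4 each, SD, log2 change -0.02, 95% interval -0.32 to 0.27, adjusted p in limma 0.964, and -0.11 without vehicle library 4).

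Split by gene section, no section held a called region. The 40 tested start regions had a median log2 change of 0.17, as did all tested start regions, with 1 of 40 at an unadjusted p under 0.05 beside 8.39% of all. The 122 intron regions had a median of 0.05 and 5 at an unadjusted p under 0.05, beside a median of 0.10 over all intron regions, 9.10% of which were at that level. The 14 regions in 3' UTR exons had a median of -0.08 beside 0.10 over all such regions, with 1 at an unadjusted p under 0.05 beside 9.55% of all. The 30 regions in 5' UTR exons had a median of 0.11 and 2 at that level, beside 0.083 and 8.74% over all such regions.

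Genes that surround the pathway were read as 5 lists, and in none of them did a region or a gene sum pass the threshold. The counts that follow are at an unadjusted p under 0.05 and are to be read beside 6.59% higher, 2.63% lower and a median log2 change of 0.12 over all tested regions (4.43%, 3.40% and 0.04 without vehicle library 4). Partners and regulators of calcineurin, 14 of 15 genes in the table, had 98 tested regions with 3 higher (3.06%) and 3 lower (3.06%) and a median of 0.04, and 1 higher, 4 lower and -0.06 without vehicle library 4. The smallest p among them fell in intron 12 of Cabin1, a calcineurin inhibitor (log2 change 1.10 ± 0.37, SE, adjusted p in limma 0.432). Among the sums it fell on Myoz2, which ties calcineurin to the Z-disc of the fibre (log2 change 0.46 ± 0.20, SE, adjusted p in limma 0.511, and 0.29 without vehicle library 4). The kinases that send NFAT back to the cytoplasm, listed with Nfat5 (7 genes), had 102 tested regions with 4 higher (3.92%) and 0 lower and a median of 0.22, and 3 higher, 2 lower and 0.05 without vehicle library 4. Their smallest p was that of Gsk3b intron 4 (log2 change 0.81 ± 0.33, SE, adjusted p in limma 0.501) and, among sums, of Dyrk2 (log2 change 0.33 ± 0.14, SE, adjusted p in limma 0.514).

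Genes of calcium entry had 81 tested regions, 7 higher (8.64%) and 1 lower (1.23%), with a median of 0.14, and 5 higher, 3 lower and 0.05 without vehicle library 4. The lower one, in intron 1 of Stim2, a calcium sensor of the reticulum, measured 18.1, 13.4, 33.7 and 18.8 in vehicle and 4.28, 7.53, 9.54 and 6.27 in iMSBmal1KO. The groups did not overlap, with a log2 change of -1.44 ± 0.39 (SE, adjusted p in limma 0.263). Among the sums of this list Stim1 had the smallest p (log2 change 0.31 ± 0.15, SE, adjusted p in limma 0.527, and 0.18 without vehicle library 4).

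Slow fibre genes, which calcineurin and NFAT are known to favour, had 51 tested regions with 6 higher (11.8%) and 2 lower (3.92%) and a median of 0.06. Without vehicle library 4 there were 4 higher and 5 lower, with a median of -0.05. The smallest p fell on a start region of Myh7b, a slow myosin gene, with 21.3, 12.3, 19.7 and 31.3 in vehicle and 10.7, 7.53, 8.35 and 6.27 in iMSBmal1KO (log2 change -1.22 ± 0.36, SE, adjusted p in limma 0.349). Among sums it fell on Casq2, the slow form of the calcium store protein calsequestrin (log2 change 0.32 ± 0.14, SE, adjusted p in limma 0.516). Fast fibre genes had 160 tested regions with 19 higher (11.9%) and 3 lower (1.88%) and a median of 0.33. Without vehicle library 4 there were 9 higher (5.62%) and 2 lower (1.25%), with a median of 0.13. Their smallest p fell in intron 14 of Myh4, the fastest myosin of mouse limb muscle, with 22.4, 14.4, 16.5 and 12.5 in vehicle and 34.7, 40.1, 33.4 and 23.8 in iMSBmal1KO. The groups did not overlap (log2 change 0.97 ± 0.30, SE, adjusted p in limma 0.388), and the Myh4 sum had a log2 change of 0.66 ± 0.25 (SE, adjusted p in limma 0.5005) that was 0.36 without vehicle library 4. A difference between the slow and fast lists was not tested.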

How the data were processed

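ATAC-seq values for 8 mouse gastrocnemius libraries came from a deposited file of regions. Its signal values, unit not named in the file, are deposited read counts divided by 1 factor per library: 98.3% to 99.8% of non-zero values were whole multiples of that factor within 0.02, so depths are given as read equivalents. The main fit was made on the scaled values in place of the planned count model, with limma-voom on the read equivalents as an alternative. Per the submitters' processing notes, Partek, Bowtie2, MACS2 and DESeq2 were used with mm10 and GRCm39. The file names no build, and member positions match GRCm38.p6 in RefSeq. Coordinates are as listed, the end being the base after the last.

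Regions, gene sums and gene section sums were tested with limma 3.58.1 (R 4.3.3, data.table version 1.17.8) on log2(signal + 1), trend and robust, with group as the sole term and Benjamini-Hochberg adjustment over all tested. A feature was tested with at least 0.762 read equivalents per M in 4 libraries and a total of 15. Fold changes on this scale understate those of weak regions. Tables and figures used Python 3.11.15, pandas 2.3.3 and matplotlib 3.10.9, and the fit was tested on simulated data. Alternatives were other scalings, filters, pseudocounts and limma-voom, a replicate block and leaving out each library. For each gene the text names the strongest start or 5' UTR exon region, the strongest elsewhere, the region with the smallest p and any called region, and for each list a called gene or that with the smallest p. The other regions were named after their values were seen. The genes, lists and tests were chosen with earlier results of these data known. The markers of 1 further cell type are not reported here.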

Additional observations from a re-analysis of the deposited data

Results flagged for a closer look

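Of the 82 groups of 4 libraries tested for an outlying library, 3 had one whose gap to the nearest other value exceeded Dixon's 95% limit for 4 values, where 4.1 are expected by chance. At the intron 1 region of Ppp3r1 starting at 17160242, iMSBmal1KO library 3 measured 20.3 and the other 3 measured 16.3 to 16.7. At the strongest intron 5 region of Nfatc2, starting at 168524872, vehicle library 4, the shallowest, measured 359.6 and the other 3 measured 522 to 532. At the Rcan1 region near a transcript end, starting at 92398826, iMSBmal1KO library 1 measured 127 and the other 3 measured 47.7 to 57.7.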

How the results depend on the processing

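For 42 single results (9 gene sums, regions and 1 section sum), 706 values under alternative settings were computed, of which 663 kept both direction and side of the threshold, 33 reversed and 10 came past the threshold, with none lost. The 10 were the Nfatc2 intron 5 region and 3' UTR exon sum, under median-of-ratios factors, trimmed-mean factors, loess, limma-voom and without vehicle replicate 4, so the calcineurin and NFAT genes had 1 called region and 1 called section sum there and 0 under the other settings (0 to 1 when a library was left out). Over all tested regions the count was 110, and 279 with median-of-ratios factors, 277 with trimmed-mean factors, 342 with loess, 342 with limma-voom, 195 without a filter, 36 at a threshold of 0.01, and 32 (without vehicle replicate 1) to 281 (without vehicle replicate 4) when a library was left out. The cause was not tested. The reversals came when a library was left out, except 1 under loess. The leave-one-out ranges of the log2 change were -0.29 to 0.12 for the Ppp3cb sum, -0.059 to 0.033 for the Nfatc1 sum and -0.11 to 0.049 for the Rcan2 sum. They were -0.10 to 0.086 at the Ppp3ca start, -0.20 to 0.22 at the Ppp3cb start region, -0.59 to 0.19 in Ppp3cb intron 12, -0.30 to 0.10 at the Nfatc2 start, -0.16 to 0.027 at the strongest Nfatc2 intron 5 region and -0.15 to 0.011 in Nfatc3 intron 1. For Rcan1 they were -0.053 to 0.53 at the internal start and -0.12 to 0.047 at the second most open region, and for Rcan2 intron 2 they were -0.026 to 0.27, with -0.012 under loess. Libraries with the same replicate number did not deviate together (correlations -0.06, 0.14, 0.02 and 0.02), and with the number as a replicate block 100 regions of all and 0 of the calcineurin and NFAT genes were called, which changed no call named here. The planned count tests were not run, since the deposited values are scaled. Limma-voom was fitted on the read equivalents recovered from them. Weak regions held as few as 0 to 5 read equivalents in vehicle replicate 4, so estimates there rest on few reads in that library. The simulated data used an assumed spread between libraries, so they do not show which differences could be detected in these libraries.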
